A study of Homo sapiens with 29 samples.

Results

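The chromatin remodeler INO80 and the transcription factor YY1 were set against each other gene by gene in Huh7 cells, a human hepatocellular carcinoma line. A protein-coding gene counted as a target of a factor when a deposited peak reached to within 1 kb of where any of its coding transcripts begins, using GENCODE basic transcripts on the build hg19. Of 19785 protein-coding genes, 7997 had both factors, 1439 had INO80 alone, 2202 had YY1 alone and 8147 had neither.

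INO80 is the ATPase of a large complex that slides nucleosomes and exchanges histone variants at promoters, replication forks and sites of DNA damage. YY1 is a zinc finger protein that binds a short DNA motif, often just downstream of the start of broadly expressed genes, and it is also a subunit of the mammalian INO80 complex. MCRS1 is a further subunit, and RUVBL2 is an ATPase that the complex shares with the TIP60 and SRCAP complexes. A peak near a start is a region of ChIP enrichment, and it says nothing of how strongly the gene is expressed.

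The series maps these factors by chromatin immunoprecipitation and sequencing, and its labels describe 29 libraries in 14 groups. In untreated Huh7 cells, INO80, YY1, MCRS1 and RUVBL2 had 2 libraries each, with a different antibody for each factor. In untreated HepG2 cells, a second human liver cancer line, INO80 had 3 libraries, and no sample record describes the YY1 list, which the series text credits to public ENCODE reads. Each factor had 1 peak list per line, with positions and no score, so no difference below could be set against a spread between replicates, and no test was run. Intervals are 95% Wilson intervals that cover counting only, and neighbouring genes that share a peak are not independent.

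Promoters were read for the YY1 motif, whose frequency differed between the classes. The motif searched was AANATGGC, with GCCATNTT for the opposite strand, and 6.7% of all 19785 promoters of 300 bases held it. The windows printed here run from 120 bases before to 30 bases after the start of the canonical transcript on hg19, 5′ to 3′ in the direction of the gene, with any match in capitals. RPL13A (chr19:49990745-49990894, plus strand), EXOSC8 (chr13:37574803-37574952, plus strand) and PTMA (chr2:232573115-232573264, plus strand) had both factors. RPL13A encodes a ribosomal protein, EXOSC8 a subunit of the RNA exosome and PTMA the nuclear protein prothymosin alpha. LHX4 (chr1:180199279-180199428, plus strand), a LIM homeodomain factor, and WNT9A (chr1:228135604-228135753, minus strand), a secreted WNT ligand, had INO80 alone. ACTR5 (chr20:37376983-37377132, plus strand) and ACTR8 (chr3:53916150-53916299, minus strand) encode subunits of the INO80 complex itself and had YY1 alone. They are shown as examples of the classes with a peak, picked after their windows were seen. They come from a larger number of named genes, of which others also have a match, or none, inside a peak. The examples hold matches far more often than their classes do. In the windows of 300 bases, a match was found at 10.8% of genes with both, 5.9% with YY1 alone and 2.92% with INO80 alone.
RPL13A: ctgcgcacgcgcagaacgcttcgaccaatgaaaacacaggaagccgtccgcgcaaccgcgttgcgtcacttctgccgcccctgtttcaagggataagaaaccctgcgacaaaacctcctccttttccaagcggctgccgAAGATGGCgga
EXOSC8: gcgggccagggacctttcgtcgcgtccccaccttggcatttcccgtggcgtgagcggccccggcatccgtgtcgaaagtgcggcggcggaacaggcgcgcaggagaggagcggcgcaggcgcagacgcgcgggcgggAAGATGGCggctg
PTMA: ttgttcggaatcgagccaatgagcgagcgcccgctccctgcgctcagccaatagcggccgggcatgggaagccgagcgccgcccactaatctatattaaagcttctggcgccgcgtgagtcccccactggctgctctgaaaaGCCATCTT
LHX4: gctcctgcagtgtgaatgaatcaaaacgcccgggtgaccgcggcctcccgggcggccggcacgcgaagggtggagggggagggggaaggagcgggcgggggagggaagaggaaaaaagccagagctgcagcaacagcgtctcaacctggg
WNT9A: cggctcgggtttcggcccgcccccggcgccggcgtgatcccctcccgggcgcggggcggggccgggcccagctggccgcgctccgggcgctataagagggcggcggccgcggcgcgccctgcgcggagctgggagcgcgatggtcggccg
ACTR5: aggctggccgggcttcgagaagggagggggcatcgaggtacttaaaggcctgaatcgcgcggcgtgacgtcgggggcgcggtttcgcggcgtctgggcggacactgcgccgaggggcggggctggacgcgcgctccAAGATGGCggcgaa
ACTR8: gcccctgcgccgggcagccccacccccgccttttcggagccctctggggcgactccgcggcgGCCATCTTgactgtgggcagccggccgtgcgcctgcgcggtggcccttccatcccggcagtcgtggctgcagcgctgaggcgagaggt
The match began 20 bases downstream of the start in RPL13A, 18 bases in EXOSC8 and 17 bases in ACTR5, each in the direction of the gene. In PTMA it began 23 bases downstream on the opposite strand, and in ACTR8 it began at position -58, upstream of the start, also on the opposite strand. The windows of LHX4 and WNT9A held no match.

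INO80 and YY1 shared most of their target genes. INO80 lay at 9436 genes (47.7% of all coding genes) and YY1 at 10199 (51.5%). Genes with both made up 40.4% (39.7 to 41.1%), genes with INO80 alone 7.27% (6.92 to 7.64%), genes with YY1 alone 11.1% (10.7 to 11.6%) and genes with neither 41.2% (40.5 to 41.9%). YY1 was present at 84.7% of the INO80 genes, against 21.3% of the genes without INO80. Read the other way, INO80 was present at 78.4% of the YY1 genes, against 15.0% of the genes without YY1. With only the wider 50% of each list, 4521 genes (22.9%) had both.

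Within the genes with both, an INO80 and a YY1 peak usually overlapped. The class rule already placed a peak of each factor within 1 kb of a start of the same gene, which favours overlap. How much overlap that rule alone would give was not tested. At 7442 of the 7997 genes (93.1%) an INO80 and a YY1 peak shared at least 1 bp, and at 7103 (88.8%) they shared at least 50% of the narrower peak. The centres of the overlapping pairs were a median of 142 bp apart (quartiles 56 and 291 bp). Neither factor's peaks were wider as a rule: the INO80 peak was the wider one in 45.0% of pairs, and the median log2 ratio of INO80 width to YY1 width was -0.08 (quartiles -0.92 and 0.45).

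Peaks at shared genes were wider than peaks at genes with 1 factor. The widest INO80 peak of a gene had a median width of 670 bp at genes with both, against 449 bp at genes with INO80 alone. For YY1 the medians were 752 bp at genes with both, against 332 bp at genes with YY1 alone. A YY1 peak covered a start at 79.4% of genes with both, against 55.7% of genes with YY1 alone, and an INO80 peak did so at 63.2% of genes with both, against 46.9% of genes with INO80 alone. Any start of a gene counted here, and genes with both had more of them. The mean was 3.33 starts with both, 2.97 with INO80 alone and 2.93 with YY1 alone, and its part in these differences was not tested. Where 1 factor was absent it was usually far away: the nearest YY1 peak lay a median of 49700 bp from a start of genes with INO80 alone, and the nearest INO80 peak 37600 bp from a start of genes with YY1 alone. The absent factor lay between 1001 and 2000 bp away at 4.52% of genes with INO80 alone and at 4.36% of genes with YY1 alone.

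The 1 kb limit cut through few genes. INO80 targets numbered 5729 with a peak over a start, 136 with the nearest base 751 to 1000 bp away, and a further 74 genes lay 1001 to 1250 bp away. YY1 gave 7577, 81 and 69 genes at the same distances. Just inside for INO80 were CFAP97D1 at 1000 bp, ADGRA1 at 995 bp and ENSG00000285404 at 993 bp, and just outside were DLX2 at 1002 bp, USP7 at 1007 bp and RETREG2 at 1012 bp. Just inside for YY1 were TAFA2 at 998 bp, and AL627309.1 and C1orf232 at 997 bp, and just outside were AC005488.1 at 1006 bp and CD248 at 1011 bp.

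MCRS1 and RUVBL2 were found mainly where INO80 and YY1 were both present. MCRS1 lay at 4323 coding genes (21.8%) and RUVBL2 at 2503 (12.7%). MCRS1 was present at 49.1% of genes with both, 9.45% of genes with INO80 alone, 9.31% of genes with YY1 alone and 0.724% of genes with neither. RUVBL2 was present at 29.4% of genes with both, 0.695% of genes with INO80 alone (10 of 1439), 6.09% of genes with YY1 alone and 0.123% of genes with neither. Genes with INO80 alone and genes with YY1 alone therefore held MCRS1 at nearly the same share, while RUVBL2 was at 134 genes with YY1 alone and at 10 genes with INO80 alone. That count of 10 rested on how a gene was assigned: it was 70 of 1479 genes with INO80 alone (4.73%) when the centre of the peak had to lie within 1 kb, and 49 of 2149 genes (2.28%) with equal numbers of the widest INO80 and YY1 peaks.

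**Figure D1:**
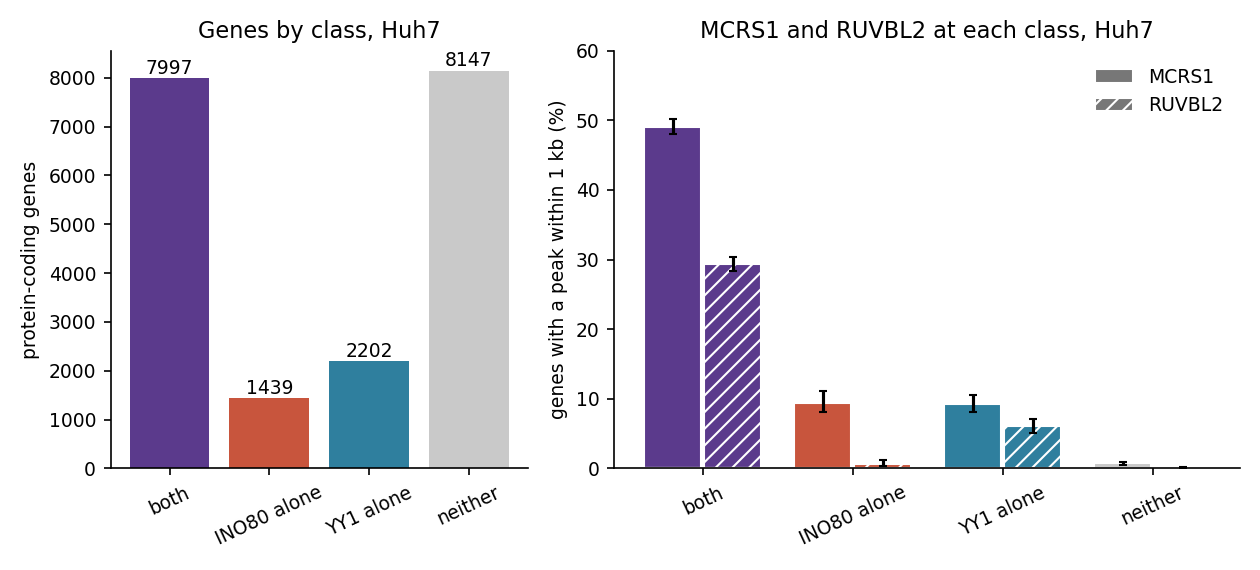
The left panel counts protein-coding genes (vertical axis) in each class in Huh7, and the right panel gives the percentage of genes of each class with an MCRS1 peak (plain bars) or a RUVBL2 peak (hatched bars) within 1 kb, with 95% Wilson intervals. MCRS1 reached 49.1% and RUVBL2 29.4% of genes with both, and every bar of the other classes stayed below 10%.

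The shares with MCRS1 and RUVBL2 were also read by the width of the INO80 peak. Among genes whose widest INO80 peak was under 300 bp, MCRS1 was present at 23.7% with both (427 of 1801), and at 58 of 525 genes with INO80 alone. Among those with an INO80 peak of 1200 bp or more, MCRS1 was present at 67.5% with both (1187 of 1759) and 3.14% with INO80 alone (8 of 255). The MCRS1 share thus climbed with INO80 width where YY1 was present and was lowest in the widest bin where YY1 was absent. RUVBL2 was present at 51.0% of genes with both in that widest bin, and at 0 of the 255 genes with INO80 alone (interval 0 to 1.48%). At genes with both, MCRS1 was present at 51.7% where the INO80 and YY1 peaks shared bases and at 13.7% of the 555 genes where they lay apart, and RUVBL2 at 31.1% and 6.67%. Whether these genes differ in peak width was not tested.

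**Figure D2:**
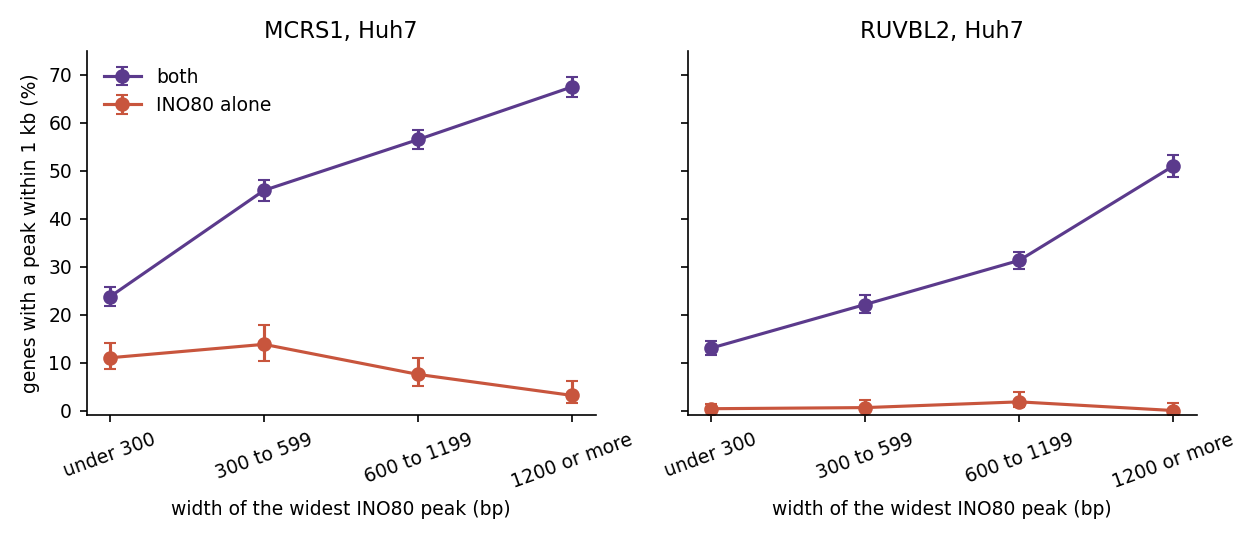
The percentage of genes with an MCRS1 peak (left) or a RUVBL2 peak (right) within 1 kb is plotted against the width of the gene's widest INO80 peak in bp, for genes with both factors and genes with INO80 alone, with 95% Wilson intervals. For MCRS1 the line of genes with both climbs to 67.5% in the widest bin, where genes with INO80 alone stand at 3.14%.

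The widest YY1 peaks nearly always came with INO80, whereas the widest INO80 peaks did not always come with YY1. INO80 was present at 55.1% of YY1 genes with a YY1 peak under 300 bp, 73.7% at 300 to 599 bp, 87.1% at 600 to 1199 bp and 94.0% at 1200 bp or more. YY1 was present at 77.4%, 85.1%, 88.6% and 87.3% of INO80 genes in the same bins of INO80 width, with no further gain in the widest bin.

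Among the genes with both, TNRC18 had the widest peaks by the rule used here, with an INO80 peak of 10666 bp and a YY1 peak of 7794 bp. ACTB, which encodes beta-actin and is itself a subunit gene of the complex, had an INO80 peak of 6216 bp and a YY1 peak of 9663 bp. GAPDH, a glycolytic enzyme, had 5713 and 8640 bp for INO80 and YY1, and FTH1, the ferritin heavy chain, 5572 and 6259 bp. The other genes named by this rule were PTMA, RCC1 (the exchange factor of the GTPase Ran), MIDN, BRD2 (a reader of acetylated histones), XBP1 (a factor of the unfolded protein response) and ONECUT1, a hepatocyte homeodomain factor. Of the 10 genes, 9 also had MCRS1 and 9 had RUVBL2. ONECUT1 was the exception, with an INO80 peak of 5530 bp and a YY1 peak of 5529 bp and neither partner.

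Among the genes with INO80 alone, LHX4 had the widest peak, 7128 bp (chr1:180197865-180204992), and its nearest YY1 peak was 271907 bp away. RFX4, a factor of the brain and testis, had 5084 bp, and FLRT2, a membrane protein of cell adhesion and axon guidance, 4984 bp. The peak of ENSG00000261793, 4796 bp, lay near starts of 3 coding genes. The others were TMEM59L, HES7 (a repressor of the segmentation clock), FIBCD1, HRK (a pro-apoptotic BH3-only protein), SIM2 and HELT, both basic helix-loop-helix factors of the nervous system. None of the 10 had MCRS1 or RUVBL2 within 1 kb, and 8 of the 10 were in the same class in HepG2.

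Genes with YY1 alone at the widest peaks were mostly near misses for INO80. PTPRCAP, which encodes a phosphatase-associated protein of lymphocytes, had the widest, 11136 bp, and its nearest INO80 peak was 5210 bp away. RAB26, a GTPase of secretory granules, had 6648 bp, CKB, the brain creatine kinase, 4953 bp, and IGF2, a fetal growth factor made by liver, 3622 bp. MAMDC4, P2RY11 (a purine receptor), SMIM47, ENO3 (the muscle enolase), EHBP1L1 and S100P (a calcium-binding protein) completed the set. An INO80 peak lay 1182 to 2695 bp from a start at 7 of the 10 genes. Of the 10 widest with INO80 alone, 2 had a YY1 peak within 3000 bp. No gene of the 10 was in the same class in HepG2, where 6 had both and 4 had neither.

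Genes of the INO80 complex itself were mostly shared targets. Of its 16 subunit genes, 12 had both factors (against 40.4% of all coding genes), 3 had YY1 alone (18.8%, against 11.1%), 1 had neither and 0 had INO80 alone. Several families described next had a higher share of both. INO80, the ATPase, had an INO80 peak of 1073 bp and a YY1 peak of 704 bp. YY1 had an INO80 peak of 167 bp and a YY1 peak of 1444 bp. UCHL5, a deubiquitinase, had 1219 and 509 bp for INO80 and YY1, and INO80E 1018 and 1365 bp. ACTB, ACTL6A, INO80B, INO80C, INO80D, MCRS1, RUVBL1 and TFPT also had both. The canonical start of RUVBL1, in the window chr3:127842626-127842775, was not within 1 kb of its widest INO80 or YY1 peak, and 2 coding genes shared each of those peaks. YY1 stood alone at ACTR5 (710 bp) and ACTR8 (426 bp), which encode actin-related proteins of the complex, and at RUVBL2 (194 bp). NFRKB had neither in Huh7 and both in HepG2, and RUVBL2 was the 1 subunit gene with YY1 alone in both lines.

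Families were then read against these shares of all coding genes. They are patterns of gene symbols chosen with earlier results of these data in view, and their counts describe the peak lists only. The families with the highest share of both, against 40.4% of all coding genes, were chaperonins and prefoldins, the anaphase-promoting complex, ribosomal proteins, histones, replication licensing, the exosome, the COP9 signalosome and integrator. All 14 chaperonin and prefoldin subunits, which fold new proteins, had both, with CCT3, CCT4, CCT6A and CCT7 the widest. Both factors lay at 15 of 16 anaphase-promoting complex subunits, at 20 of 22 genes of replication licensing, at 10 of 11 exosome subunits, at 9 of 10 COP9 signalosome subunits and at 13 of 15 integrator subunits. In these 5 families every remaining member had YY1 alone: ANAPC11, GINS4 and MCM9, DIS3, GPS1, and INTS11 and INTS3. All 7 of those genes had both in HepG2.

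Ribosomal protein and histone genes carried wide shared peaks. Of 87 cytosolic ribosomal protein genes, 81 had both, 66 had MCRS1 and 51 had RUVBL2, and the median widths were 1520 bp for INO80 and 1240 bp for YY1. RPL34 was the 1 member with INO80 alone. Of 66 replication-dependent histone genes, which sit in clusters and share peaks, 60 had both and 6 had neither, 56 had MCRS1 and 57 had RUVBL2. Their median widths were 2770 bp for INO80 and 2420 bp for YY1. RPS2 had an INO80 peak of 4561 bp and a YY1 peak of 6010 bp, and H3C14 and HIST2H2AA3 lay in one INO80 peak of 4615 bp and one YY1 peak of 11635 bp.

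The families with the highest share of INO80 alone, against 7.27% of all coding genes, were WNT ligands, metallothioneins, T-box genes, ion channels, glutamate and GABA receptors, and laminins and integrins. WNT ligands, which signal through frizzled receptors, led with 8 of 19 genes, against 4 with both, 0 with YY1 alone and 7 with neither. WNT9A had an INO80 peak of 2027 bp, WNT7B 1748 bp, WNT7A 1150 bp and WNT4 788 bp, and no WNT gene had MCRS1 or RUVBL2. Of the 8, 5 had INO80 alone in HepG2 too, against 35.3% of all genes with INO80 alone in Huh7. Next were metallothioneins, which bind zinc and copper (3 of 11: MT1E, MT1A and MT1M), and T-box developmental factors (4 of 17: TBX21, TBR1, TBX1 and TBX18). Metallothioneins had both at 1 gene and YY1 alone at 2 (18.2%, against 11.1% of all coding genes). T-box genes had both at 5, more than with INO80 alone. Potassium, sodium and calcium channels had INO80 alone at 24 of 115 genes, with both at 8, YY1 alone at 4 and neither at 79. KCNK13 had the widest peak among them, 2272 bp, before KCNB2, KCNK12 and KCNJ3, and 19 of the 24 had INO80 alone in both lines, again against 35.3%. Glutamate and GABA receptors had INO80 alone at 9 of 45 genes, led by GRID1 with 3110 bp, GRIN2A, GRM4 and GABRA4, and both at 4. Laminins and integrins, proteins of cell attachment, had INO80 alone at 8 of 42, led by ITGB8, LAMA3, ITGA3 and ITGA11, and both at 9.

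The families with the highest share of YY1 alone, against 11.1% of all coding genes, were E2F factors, lipid synthesis, heme and iron handling, ubiquitin-conjugating enzymes, apolipoproteins and Polycomb subunits. E2F factors, which regulate genes of the cell cycle, had YY1 alone at 3 of 11 genes (E2F1, E2F4 and E2F8) and both at 7. Genes of cholesterol and fatty acid synthesis had YY1 alone at 7 of 29 and both at 19. INSIG1, which retains SCAP in the endoplasmic reticulum, had a YY1 peak of 2228 bp. The nearest INO80 peak lay 1261 bp from a start of INSIG1, and the gene had neither factor in HepG2. ACLY, which makes cytosolic acetyl-CoA, had a YY1 peak of 1514 bp, and EBP, a sterol isomerase, 867 bp. SCAP, the sterol sensor that escorts SREBP factors, had 675 bp. Heme and iron genes had YY1 alone at 3 of 13, among them TFRC, the transferrin receptor, and ALAS1, the first enzyme of heme synthesis, and both at 6 (46.2%). Ubiquitin-conjugating enzymes had YY1 alone at 8 of 35, led by UBE2Z, UBE2E2, UBE2K and UBE2D1, and both at 21. Polycomb subunits had YY1 alone at 6 of 29, led by RING1, YAF2, SUZ12 and PHC1, and both at 20. Apolipoproteins, the protein part of lipoprotein particles, had YY1 alone at 5 of 22 genes, both at 3 and neither at 14. APOE had a YY1 peak of 2210 bp, APOC3 724 bp, APOA1 277 bp and APOH 222 bp. Of the genes with YY1 alone in Huh7, 1 of 7 in lipid synthesis and 1 of 5 apolipoproteins had YY1 alone in HepG2 too. The count was 0 of 3 for E2F, 0 of 3 for heme and iron, 0 of 8 for ubiquitin-conjugating and 0 of 6 for Polycomb genes. The share was 8.86% over all genes with YY1 alone in Huh7, and these counts are too small to be told from it. In HepG2, both factors lay at 10 E2F, 27 lipid synthesis, 13 heme and iron, 31 ubiquitin-conjugating, 29 Polycomb and 12 apolipoprotein genes. Over all coding genes in HepG2, 56.7% had both.

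The families with the highest share of neither, against 41.2% of all coding genes, mostly belong to other tissues. All 46 defensins and all 21 interferons had neither. So did 388 of 390 olfactory receptors, 93 of 94 keratin-associated proteins, 25 of 27 taste receptors and 28 of 31 blood cell surface antigens. Of 55 keratins, 53 had neither. KRT8 and KRT18, the keratin pair of simple epithelia such as liver, had both, through the same INO80 peak of 302 bp (chr12:53343158-53343459). It lay 256 bp from a start of KRT18 and 149 bp from a start of KRT8. The canonical start of KRT8, in the window chr12:53298831-53298980, was not within 1 kb of that peak. Genes with UGT symbols, many of which encode UDP glucuronosyltransferases that conjugate drugs or bilirubin in liver, had neither at 20 of 21 genes. UGT3A1 had INO80 alone. The remaining exceptions were OR1F1, TAS1R1, CD38, CD68 and CD8A with both, and OR4F3, KRTAP2-1 and TAS1R3 with YY1 alone. The canonical start of CD8A was not within 1 kb of its widest INO80 or YY1 peak.

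**Figure D3:**
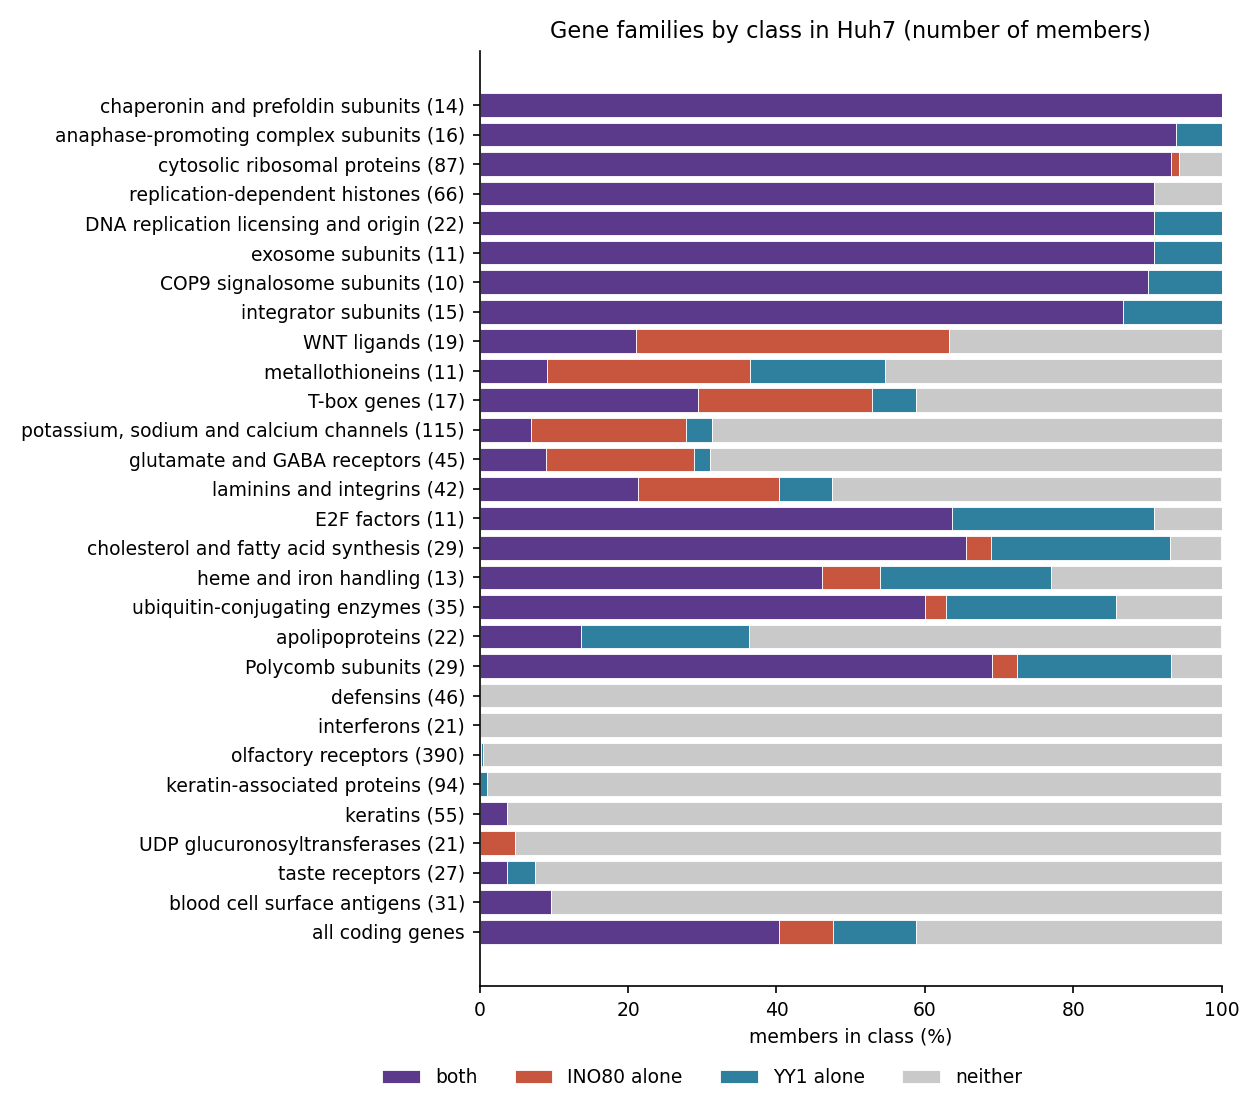
Each bar gives the percentage of a family's members in each class in Huh7, with the number of members in parentheses and all coding genes in the lowest bar. Families run from those with the highest share of both, through INO80 alone and YY1 alone, to neither, and the INO80 alone segment is widest in WNT ligands at 42.1%.

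Hepatocyte markers had both, and YY1 alone, at shares close to those of all coding genes. Of 41 marker genes, 15 had both (36.6%, against 40.4% of all coding genes), 1 had INO80 alone (2.44%, against 7.27%), 4 had YY1 alone (9.76%, against 11.1%) and 21 had neither (51.2%, against 41.2%). Most of the transcription factors that hold hepatocyte identity had both. FOXA2 had an INO80 peak of 2787 bp and a YY1 peak of 3777 bp, and CEBPA had 2580 and 5569 bp. ONECUT1, FOXA1, FOXA3, HNF4A and PROX1 had both as well, and NR1H4, the bile acid receptor, had neither. The INO80 peak of HNF4A was 147 bp, the lowest width in the Huh7 INO80 list. It was 299 bp at FOXA1, 833 bp at FOXA3, 1141 bp at PROX1 and 5530 bp at ONECUT1. Among secreted and metabolic genes, APOB had an INO80 peak of 2404 bp and a YY1 peak of 2240 bp, and RBP4 had 1857 and 1323 bp. AMBP, ASGR2, CYP2E1, TF and VTN also had both. The canonical start of CYP2E1 was not within 1 kb of its widest INO80 or YY1 peak. FGG, a fibrinogen chain, was the marker with INO80 alone, and APOA1, APOC3, APOH and SERPINA1, all secreted into plasma, had YY1 alone. The genes with neither in Huh7 included ALB, AFP, TTR, AHSG, APOA2, HP, HPX, FGA, FGB, ASGR1, CPS1, PCK1, G6PC1, TAT, TDO2, CYP3A4, CYP7A1, SLC10A1 and SLC2A2, beside NR1H4. Of the 21 genes with neither, 9 had both in HepG2 (ALB, AFP, TTR, AHSG, APOA2, HP, ASGR1, CPS1 and PCK1) and 8 had neither there. Some of the 21 had peaks not far outside the 1 kb limit. In Huh7 the nearest INO80 and YY1 peaks were 1016 and 1026 bp from a start at CPS1 and 1144 and 1209 bp at ALB. They were 1401 and 1892 bp away at NR1H4 and 2341 and 2223 bp away at APOA2. At FGB the nearest INO80 peak was 2691 bp away and the nearest YY1 peak 13756 bp.

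HepG2 gave the same class for most shared genes and few genes with YY1 alone. In HepG2, INO80 lay at 63.7% and YY1 at 62.6% of coding genes, and 11220 genes had both (56.7%). INO80 alone was found there at 7.01% of all coding genes, YY1 alone at 5.87% and neither at 30.4%. The shares below are to be read beside these. The same class was found for 13750 of 19785 genes (69.5%). Of the genes with both in Huh7, 93.5% had both in HepG2. Of the genes with INO80 alone, 52.9% had both in HepG2 and 35.3% (508 genes) again had INO80 alone. Of the genes with YY1 alone, 80.2% had both in HepG2 and 8.86% (195 genes) again had YY1 alone. Of the genes with neither, 68.3% again had neither. The INO80 lists held 15303 peaks in Huh7 and 23665 in HepG2, and the YY1 lists 21554 and 39293, and the part of list length in these shares was not tested.

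**Figure D4:**
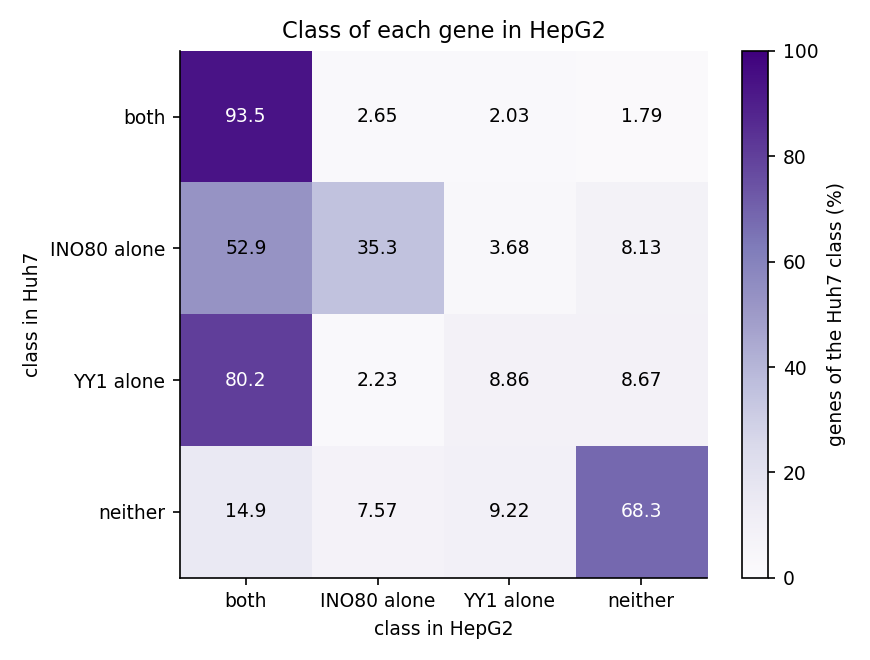
Rows are the class of a gene in Huh7 and columns its class in HepG2, and each cell gives the percentage of the Huh7 class, darker for higher values. The both to both cell holds 93.5%, and the INO80 alone to INO80 alone cell 35.3%, against 8.86% for YY1 alone.

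Genes with INO80 alone in both lines had wide INO80 peaks and almost no partners. Their median INO80 width in Huh7 was 758 bp, against 361 bp at genes with INO80 alone in Huh7 and both in HepG2. Of the 508, MCRS1 in Huh7 was present at 7 (1.38%) and RUVBL2 at 0 (interval 0 to 0.751%). The 195 genes with YY1 alone in both lines had narrower YY1 peaks, with a median of 251 bp, against 371 bp at genes with YY1 alone in Huh7 and both in HepG2. Of those 195, MCRS1 was present at 19 (9.74%) and RUVBL2 at 8 (4.1%).

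The YY1 motif was most frequent in promoters of genes with both. In windows from 250 bases before to 50 bases after the annotated start, AANATGGC was found at 10.8% of genes with both (10.2 to 11.5%), 2.92% with INO80 alone (2.17 to 3.92%), 5.9% with YY1 alone (4.99 to 6.97%) and 3.54% with neither (3.16 to 3.96%). Of the matches in genes with both, 47.6% began 1 to 43 bases downstream of the start, and 75.2% of those ran in the direction of the gene. Genes with YY1 alone were close to this, with 45.1% of 133 matches beginning there and 76.7% of those running with the gene. The matches in genes with neither began there in 24.4%, and 56.9% of those ran with the gene. With INO80 alone, 9 of 42 matches began there. The ETS motif CCGGAAG was found at 17.3% of genes with both and 17.1% with YY1 alone, against 8.2% with INO80 alone and 5.44% with neither, and at 11.7% of all promoters.

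The NRF1 motif GCGCATGC was found at 5.3%, 3.47%, 5.45% and 1.8% of genes with both, INO80 alone, YY1 alone and neither, and at 3.75% of all promoters. The NF-Y motif CCAAT was found at 36.7%, 28.6%, 35.3% and 36.3% in the same order, and at 35.8% of all. The TATA box TATAAA was found at 7.37%, 6.74%, 4.9% and 16.5%, and at 10.8% of all, so it was most frequent with neither. All were searched on both strands, and matches of different motifs may share bases. Promoters of all 3 bound classes were rich in CG pairs, with a median of 24 per window with both, 22 with INO80 alone and 25 with YY1 alone, against 7 with neither. A match is a run of letters and not a measured binding site.

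**Figure D5:**
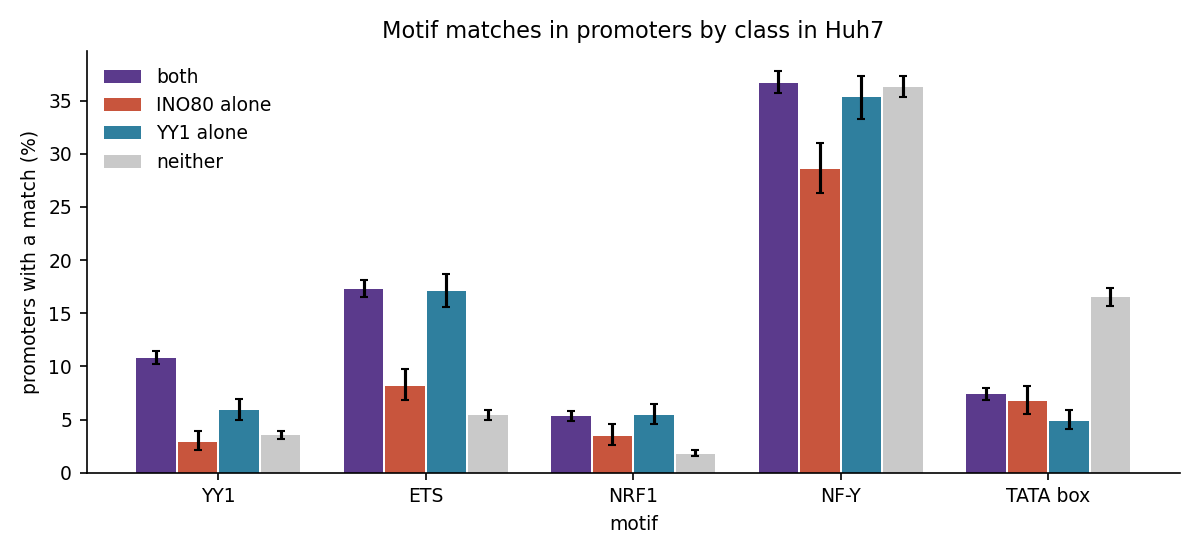
Percentage of promoters with at least 1 match on either strand for each of 5 motifs, by class in Huh7, with 95% Wilson intervals. The YY1 motif stands at 10.8% for genes with both, and for the ETS motif genes with both and genes with YY1 alone stand at 17.3% and 17.1%.

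The X chromosome held few targets of any of the 4 factors. INO80 was present at 10.6% of X genes, against 49.5% of autosomal genes, YY1 at 172 of the 862 X genes, against 53.1%, MCRS1 at 3.48%, against 22.7%, and RUVBL2 at 1.51%, against 13.2%. Of 862 coding genes on X, 75 had both (8.7%), 16 had INO80 alone (1.86%), 97 had YY1 alone (11.3%) and 674 had neither (78.2%), against 42.0%, 7.54%, 11.2% and 39.3% of the 18877 autosomal genes. Thus the share with YY1 alone was nearly equal on X and the autosomes, while the share with both was several times lower on X. INO80 was present at 43.6% of the YY1 genes on X (36.4 to 51.1%) and at 7922 of the 10027 on autosomes (78.2 to 79.8%). In HepG2 the shares were 49.1% on X and 91.8% on autosomes. Of all INO80 peaks in Huh7, 1.09% lay on X, and of all YY1 peaks 1.93%.

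Genes with both had close neighbours more often than the other classes. The 1 kb windows about the starts overlapped those of another coding gene at 27.7% of genes with both, 173 of the 1439 genes with INO80 alone, 23.2% with YY1 alone and 8.74% with neither. Among genes with a start window of their own, YY1 was present at 82.0% of the INO80 genes, against 84.7% of the INO80 genes when all genes were kept.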

How the data were processed

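Peak lists from chromatin immunoprecipitation and sequencing were analysed as deposited. Per the submitters' processing notes, Bowtie2, SAMtools, MACS2, bedtools and deepTools were used with the build hg19, with no versions named. The authors deposited 1 filtered list per factor and line, which holds chromosome, start and end positions and no score. The labels leave unstated how replicate libraries entered the peak calls, so read depth behind a list is unknown and replicates could not be compared.

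Starts of protein-coding transcripts in the basic set of GENCODE release 44 on GRCh37, the sequence of hg19, were used (55869 starts, 19785 gene symbols). A target had a peak base no more than 1 kb from such a start. Any such start counted, so a gene's peak may lie far from its canonical start. Shared peaks had at least 1 bp in common. Widths stood in for strength. Coordinates are 1-based. Promoter windows ran from 250 bases before to 50 after the annotated 5′ end of the gene. A plan to use RefSeq starts was dropped as void, because RefSeq promoters matched 77.2% of the genes, under the 80% required. Printed sequences are GRCh37 at the start of the canonical transcript. Functions were checked on simulated peaks. Python 3.11.15, pandas 2.3.3 and statsmodels 0.14.6 were used.

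The classes and the 92 family patterns were chosen with earlier results of these data known, and some patterns were corrected after class counts were seen, to drop symbols of unrelated genes. Named genes are the 10 with the widest peaks of each class, 1 gene per peak (for genes with both, by the narrower of the INO80 and YY1 peaks). Of families with at least 8 members, the 8, 6, 6 and 8 with the highest shares of both, INO80 alone, YY1 alone and neither are named, with up to 4 leading members and the exceptions where 5 or fewer. Every subunit of the complex, every hepatocyte marker and the 3 genes on each side of the 1 kb limit come under the rule too, and a few genes it selects are not reported here. RPL34 and the WNT genes' shared lack of partners were singled out after their values were seen. Alternatives were other windows, starts, peak sets, gene sets and motifs.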

Additional observations from a re-analysis of the deposited data

How the results depend on the processing

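The 4 class counts, the overlap, the partner counts and the count of genes in the same HepG2 class were recomputed with windows of 500 bp and 5 kb, 1 start per gene, starts of all transcripts, peak centres, the wider 50% of each list, equal numbers of INO80 and YY1 peaks, autosomes only, genes with a start window of their own and, for the overlap, 50% of the narrower peak. Of 109 values, 99 stayed within 1.5 times the reported count. With the wider 50% of each list, genes with both numbered 4521, those with overlapping peaks 4451, and MCRS1 lay at 1934 and RUVBL2 at 1134 genes with both, with fewer peaks entering by construction. RUVBL2 then lay at 19 genes with INO80 alone, and the cause was not tested. With a start window of their own, MCRS1 lay at 2615 genes with both and 136 with YY1 alone, with fewer genes entering by construction. The shares with MCRS1 were then 45.2% with both, against 49.1% in the main setting, and 8.04% with YY1 alone, against 9.31%. The cause of the lower shares was not tested. With equal numbers of peaks, MCRS1 lay at 288 and RUVBL2 at 49 genes with INO80 alone, and with peak centres RUVBL2 lay at 70 of those genes; the cause was not tested. Across these settings YY1 was present at 75.2 to 85.7% of INO80 genes and INO80 at 62.2 to 82.1% of YY1 genes. Of 16 motif shares, 4 stayed inside the interval of the reported share and 12 moved outside it. At RefSeq starts the YY1 motif was found at 13.8% of genes with both and 1.98% with INO80 alone, and at canonical starts, chosen after seeing the data, at 14.7% and 1.6%. The longer ATGGCGGC was found at 5.79% of genes with both, 0.834% with INO80 alone, 3.91% with YY1 alone and 0.786% with neither. The core CCAT was found at 74.3%, 67.9%, 72.3% and 80.9% in that order, so the class order was lost with 4 letters. Counts of the named families stayed within 1.5 times in 238 of 252 values; channels with INO80 alone numbered 15 with 1 start per gene. Leaving out a replicate was not run, and no paired analysis was possible because each factor has 1 peak list per line.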

Other observations

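Further families are given here beside the shares of all coding genes, which were 40.4% with both, 7.27% with INO80 alone, 11.1% with YY1 alone and 41.2% with neither. These families were read after their values were seen. HOX genes, which set position along the body axis, had both at 9 of 39 genes (23.1%), INO80 alone at 7 (17.9%), YY1 alone at 3 (7.69%) and neither at 20 (51.3%), and MCRS1 was present at 1 of them. In HepG2, 13 of the 39 HOX genes had INO80 alone, against 7.01% of all coding genes there. Other homeobox genes had both at 25 of 107 (23.4%), INO80 alone at 20 (18.7%), YY1 alone at 4 (3.74%) and neither at 58 (54.2%). Forkhead genes had both at 15 of 55 (27.3%), INO80 alone at 7 (12.7%), YY1 alone at 6 (10.9%, close to all coding genes) and neither at 27 (49.1%). Nuclear receptors, many of which sense lipids and hormones in liver, had both at 27 of 46 (58.7%) and INO80 alone at 3 (6.52%, close to all coding genes).

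Zinc finger genes of the ZNF family, the largest family counted, had both at 259 of 509 genes (50.9%), INO80 alone at 25 (4.91%), YY1 alone at 76 (14.9%) and neither at 149 (29.3%). Among chromatin complexes, TIP60 and SRCAP subunits had both at 15 of 18 genes (83.3%) and BAF subunits at 16 of 26 (61.5%), and lysine methyltransferases and demethylases had both at 37 of 45 (82.2%). Spliceosome proteins had both at 43 of 50 genes. Mitochondrial ribosomal proteins had both at 65 of 78 genes (83.3%), INO80 alone at 3 (3.85%) and YY1 alone at 8 (10.3%).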
